A study of Macaca mulatta with 16 samples.

Results

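Transcription factor genes of the skeletal muscle lineage, MYOD1, MYF5, MYF6, MYOG, PAX7, PAX3, EYA1 and MEF2C (8 genes), were followed across extraocular muscle of the rhesus macaque. They were chosen by name, and every probe set of the array types U133A and U133B whose platform annotation lists one of these symbols was taken. This gave 13 of 44928 probe sets for the 8 genes, 12 on U133A and 1, for PAX3, on U133B. RNA of adult animals came from 4 groups: orbital layer and global layer cut out by laser microdissection, whole lateral rectus and whole medial rectus, with 2 arrays per group on each array type (16 in all). The array types were designed for human transcripts. RNA of both layers was amplified with T7 polymerase and whole muscle RNA was labelled by the standard protocol, so that amplification, microdissection and tissue cannot be told apart between layers and whole muscle. The labels name no strain, age other than adult, number of animals or pooling. Nothing says that the arrays of a group came from separate animals, and the microdissected regions are not tied to animals. P-values therefore measure only the spread between these arrays and may be too small, and 2 arrays per group limit the precision of every value.

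Extraocular muscles move the eye and have an orbital layer on the side of the orbit and a global layer on the side of the eyeball, which differ in fibre types. MYF5, MYOD1, MYOG and MYF6 are the basic helix-loop-helix myogenic regulatory factors, which pair with E proteins and bind E-box motifs in muscle genes. MYF5 and MYOD1 commit cells to the muscle lineage, MYOG drives differentiation, and MYF6, also known as MRF4, remains expressed in mature fibres. PAX7 marks satellite cells, the stem cells of adult muscle, whereas PAX3 marks precursors of trunk and limb muscle and is dispensable for the formation of extraocular muscle. EYA1 is a co-activator that works with homeodomain proteins such as SIX4 upstream of the myogenic factors, and MEF2C is a MADS-box factor that acts together with them. MYF5 and MYF6 are next to each other in the RefSeq annotation of the rhesus assembly T2T-MMU8v2.0, in which all 8 genes were found.

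Before the results, some properties of the arrays bear on them. The labels of orbital layer replicate 1 on U133A conflict: its title says orbital, its source name says global. It was grouped by its title. The difference of each gene between the layers on U133A, and the calls of the 8 genes, are given without it as well. Sums of markers are not. The source name of global layer replicate 1 on U133B does not say which layer it is. The ACTB control probe sets report signal from the 3' and 5' parts of the beta-actin transcript, and their 3' over 5' ratio on U133A was 5.30 to 5.87 on the orbital arrays, 2.84 to 2.88 on the global arrays and 0.716 to 1.04 in whole muscle. The median intensity of all probe sets was 476 to 587 on the layer arrays and 788 to 852 in whole muscle. Of 10 muscle fibre markers, 10 were measured on U133A and none was below the floor on all 8 arrays. Their summed intensity was 628021 to 717999.95 in the layers and 785458 to 963099 in whole muscle, so muscle fibre markers were measured in all 4 groups.

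Intensities below are on a linear scale after each array was brought to a common trimmed mean, and are comparable between arrays for a probe set but not between probe sets. Values under 146 on U133A or 218 on U133B, the pooled 20th percentile of each table, were raised to it as a floor before log2 was taken. A probe set entered a test when its mean log2 value over the arrays compared reached the log2 of the pooled median, 654 on U133A and 803 on U133B. Differences are log2 differences ± SE from limma, with p-values adjusted by the Benjamini-Hochberg method over all probe sets tested in a table and a threshold of 0.05. Since these are pieces of muscle, a smaller number of cells of a type and less RNA per cell cannot be told apart.

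MYOD1 (206657_s_at) was lowest on one orbital array and high on both lateral rectus arrays. Its intensity was 689 and 2489 on orbital replicates 1 and 2, 1936 and 3509 on global replicates 1 and 2, 3406 and 3495 on the lateral rectus arrays and 1941 and 2373 on the medial rectus arrays. The layers overlapped each other, and both medial arrays lay below both lateral arrays. By mean, lateral rectus came first, then global layer, medial rectus and orbital layer, and each neighbour in this order overlapped the next. The difference of orbital from global layer was −0.99 ± 0.57 (adjusted p = 0.619 by limma). It was −0.07 without orbital replicate 1, the array with conflicting labels, and −1.92 without orbital replicate 2 (adjusted p = 0.0134 by limma, range over all alternatives 0.0134 to 0.996). Medial rectus differed from lateral rectus by −0.69 ± 0.26 (adjusted p = 0.999 by limma).

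MYF5 (207424_at) gave 1873 and 1663 units on the orbital arrays, 969 and 1252 on the global arrays, 1595 and 859 in lateral rectus and 1188 and 1916 in medial rectus. The orbital arrays lay above both global arrays, and the rectus arrays spanned the range of both layers. In the order orbital layer, medial rectus, lateral rectus and global layer, no neighbours were apart. The orbital layer differed from the global layer by 0.68 ± 0.28, or 1.60-fold, which did not pass (adjusted p = 0.496 by limma). The difference was 0.59 without orbital replicate 1.

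MYF6 (206372_at) gave 21749 and 17200.2 units on the orbital arrays, 5603 and 12926 on the global arrays, 18007 and 13588 in lateral rectus and 12289 and 12303 in medial rectus. Both orbital arrays lay above both global arrays, global replicate 1 was the lowest of all 8, and the medial arrays lay below the lateral arrays. In the order orbital layer, lateral rectus, medial rectus and global layer, lateral and medial rectus did not overlap, while the other neighbours did. The orbital layer was 2.27-fold above the global layer (1.18 ± 0.38), and this did not pass (adjusted p = 0.384 by limma). Both global replicates moved this value. Without global replicate 1 the difference was 0.58 (adjusted p = 0.452), and without global replicate 2 it was 1.79 (adjusted p = 0.0179 by limma), over a range of adjusted p from 0.0179 to 0.819 in all alternatives. Without orbital replicate 1 it was 1.02.

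MYOG (207282_s_at), the differentiation factor, was the myogenic regulatory factor that parted the layers from whole muscle. It gave 438 and 548 units on the orbital arrays, 72.9 and 639 on the global arrays, 1539.8 and 1597 in lateral rectus and 1336 and 1883 in medial rectus. All 4 layer arrays lay below all 4 whole muscle arrays, and global replicate 1 was under the floor. Medial and lateral rectus overlapped, and so did the layers. The layers averaged 424 ± 248 (SD, n = 4) and whole muscle 1589 ± 226 (SD, n = 4), a log2 difference of −2.03 ± 0.43 or 4.07-fold (adjusted p = 0.00249 by limma). Without global replicate 1 the difference was −1.56. Each layer array was at least 2-fold below each whole muscle array. MYOG passed the filter through whole muscle alone, and 48.7% of all probe sets tested were called in this comparison.

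**Figure D1:**
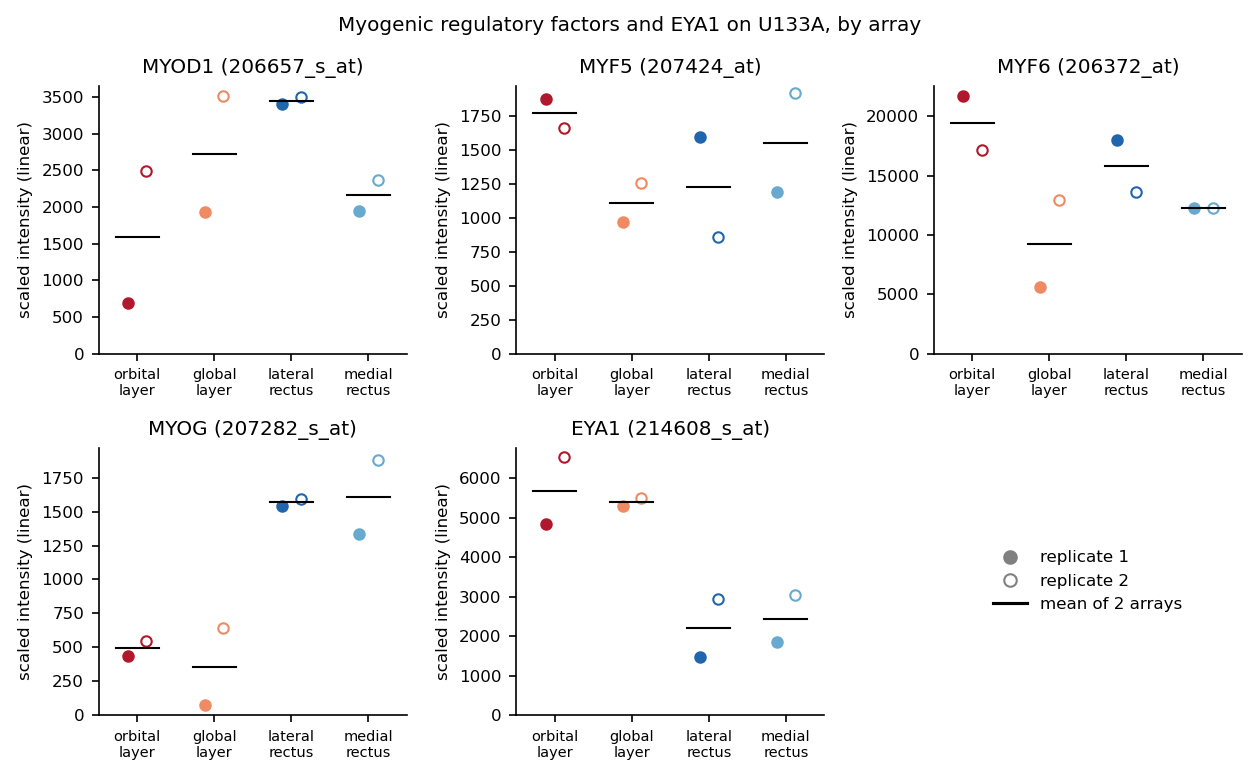
Scaled intensity (linear axis) of MYOD1, MYF5, MYF6, MYOG and EYA1 on each of the 8 U133A arrays, by group, with replicate 1 filled, replicate 2 open and a line at the mean of 2 arrays. MYOG is low on all 4 layer arrays and EYA1 is high on them, whereas MYOD1, MYF5 and MYF6 overlap between layers and whole muscle.

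PAX7 (208060_at), the satellite cell factor, was at the floor almost everywhere. It gave 37.8 and 49.9 units on the orbital arrays, 91.1 and 76.6 on the global arrays, 144 and 164 in lateral rectus and 137 and 139 in medial rectus. Lateral rectus replicate 2 was the only array above the floor, so that the order of the groups is not a measured order. It entered no test. The satellite cell markers other than the 8 genes, of which 7 of 7 were measured on U133A, summed to 8000.3 to 9345 units in the layers and 6576 to 10491 in whole muscle, and these ranges overlap. The sum joins markers that moved in opposite directions between layers and whole muscle: of 4 tested, CHODL was called higher (1.08 ± 0.17), and CDH15 (−1.54 ± 0.37) and NCAM1 (−1.05 ± 0.26) were called lower by limma. Over all U133A probe sets, 18.6% were called higher and 30.1% lower, and CDH15 passed the filter through whole muscle alone. On U133B, 1 of 7 was measured, another probe set of NCAM1, with 10040.5 to 19179 units in the layers and 4248 to 8305 in whole muscle.

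PAX3 had 3 probe sets on U133A, and none of them passed the filter in any comparison. The probe set 207679_at was above the floor only on global replicate 2 (286 units) and medial rectus replicate 2 (949.8 units), and lay between 23.2 and 92.9 on the other arrays. The probe set 216059_at was below the floor on all layer and lateral arrays and gave 588 and 228 units in medial rectus. The third, 207680_x_at, gave 499 and 243 units on the orbital arrays, 381 and 139.8 on the global arrays, 253 and 268 in lateral rectus and 594 and 942 in medial rectus. Its medial arrays were each over 2-fold above its lateral arrays, without a test. The suffix _x_at marks probe sets with probes that may also bind other transcripts. On U133B, 231666_at gave 1375 and 971 units on the orbital arrays, 846 and 1203 on the global arrays, 1457 and 398 in lateral rectus and 1517 and 621 in medial rectus. All groups overlapped on this probe set, and it did not share the higher values that both medial rectus arrays had on 207680_x_at and 216059_at. Its differences were 0.20 ± 0.47 for orbital against global layer (adjusted p = 0.945), 0.35 ± 0.93 for medial against lateral rectus (adjusted p = 0.992) and 0.33 ± 0.49 for layers against whole muscle (adjusted p = 0.609, all by limma). The first was −0.058 without global replicate 1, whose source name omits the layer.

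**Figure D2:**
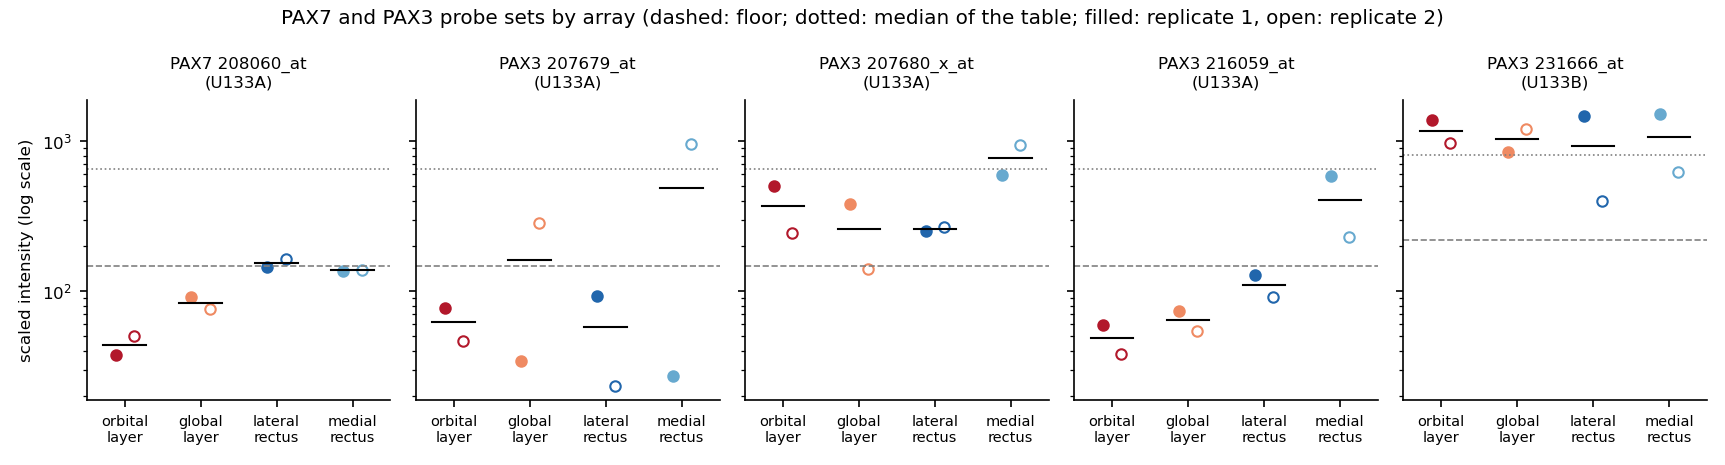
Scaled intensity (log axis) of the PAX7 probe set and the 4 PAX3 probe sets by array, with the floor dashed, the median of the table dotted, replicate 1 filled, replicate 2 open and a line at the mean. PAX7 is above the floor only on lateral rectus replicate 2, and only the U133B probe set of PAX3 has group means above the median of its table in all 4 groups.

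EYA1 (214608_s_at) was higher in the layers than in whole muscle. It gave 4841 and 6521 units on the orbital arrays, 5282 and 5507 on the global arrays, 1479 and 2942 in lateral rectus and 1854 and 3026 in medial rectus. All 4 layer arrays lay above all 4 whole muscle arrays, while orbital and global layer overlapped, as did medial and lateral rectus. The layers averaged 5538 ± 711 (SD, n = 4) and whole muscle 2325 ± 777 (SD, n = 4), a difference of 1.31 ± 0.24 or 2.48-fold (adjusted p = 0.00113 by limma). It was 1.34 for the orbital layer alone and 1.28 for the global layer alone against whole muscle. Between the layers it was 0.06 ± 0.26 (adjusted p = 0.96 by limma), and 0.27 without orbital replicate 1.

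The 3 MEF2C probe sets, all on U133A, went opposite ways between layers and whole muscle. The probe set 207968_s_at gave 564 and 754 units on the orbital arrays, 89.0 and 489 on the global arrays, 3786 and 4261 in lateral rectus and 2678 and 3218 in medial rectus. The layer arrays lay below the whole muscle arrays, with global replicate 1 under the floor, and no 2 groups overlapped. Against whole muscle the layers differed by −3.04 ± 0.43, or 8.22-fold (adjusted p = 0.00024 by limma), and by −2.54 without global replicate 1. This probe set passed the filter through whole muscle alone. The probe set 209199_s_at gave 45963 and 54328 units on the orbital arrays, 42205 and 38810.2 on the global arrays, 27805 and 22694 in lateral rectus and 22111 and 25802 in medial rectus. Here the layer arrays were all above the whole muscle arrays, by 0.88 ± 0.15 or 1.84-fold (adjusted p = 0.000686 by limma). The probe set 209200_at gave 44965 and 50844 units on the orbital arrays, 30709 and 38017 on the global arrays, 16992 and 19074 in lateral rectus and 15306 and 19422 in medial rectus. It was higher in the layers as well, by 1.20 ± 0.17 or 2.29-fold (adjusted p = 0.000274 by limma). With quantile normalization, the call of 209199_s_at ended at 0.38 (adjusted p = 0.0715 by limma, range over its alternatives 0.000403 to 0.0715), and 209200_at was at 0.69 (adjusted p = 0.00647). The position of these probe sets within the transcript is not given in the files, and the part of the ACTB ratio in the opposite directions was not tested.

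Within the layers, the orbital arrays of all 3 MEF2C probe sets lay above the global arrays. Arrays of the layers did not overlap for 41.9% of all probe sets tested, and on 207968_s_at global replicate 1 was under the floor. The difference was 0.30 ± 0.20 for 209199_s_at (adjusted p = 0.656) and 0.48 ± 0.21 for 209200_at (adjusted p = 0.519, both by limma), and 207968_s_at did not pass the filter there. Without orbital replicate 1 these were 0.42 and 0.57. The ACTB ratio was also higher on both orbital than on both global arrays, whereas the same ratio of GAPDH overlapped between the layers (1.73 to 2.00 and 1.497 to 2.92). The part of either in these values was not tested.

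**Figure D3:**
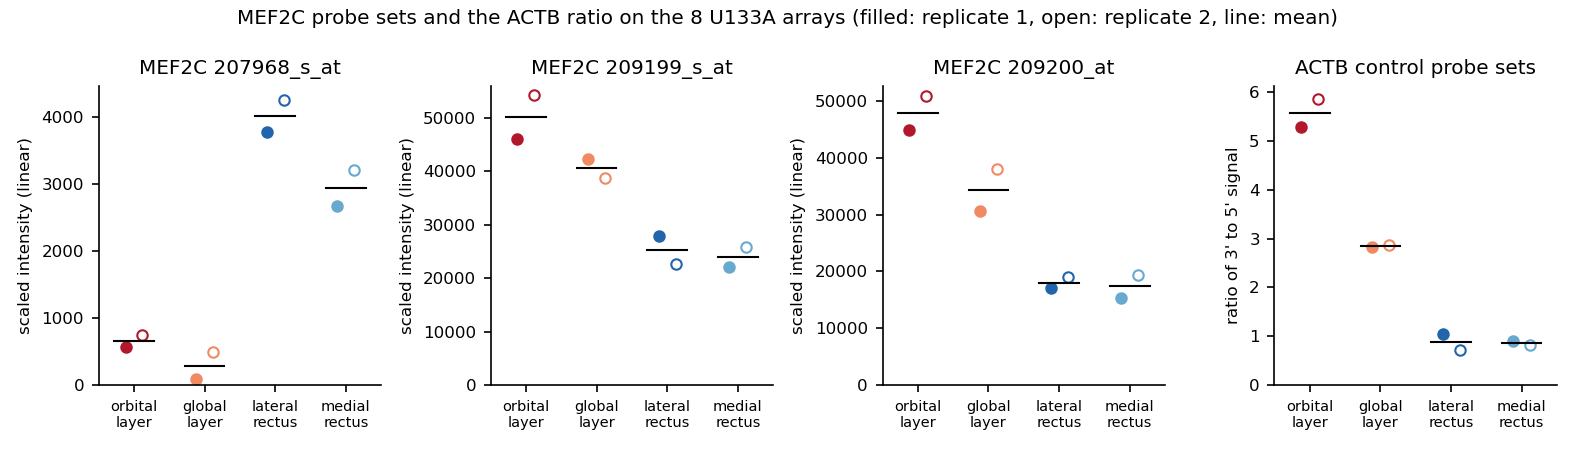
Scaled intensity (linear axes) of the 3 MEF2C probe sets and the ACTB 3' to 5' ratio on the 8 U133A arrays by group, with replicate 1 filled, replicate 2 open and a line at the mean. The group means of 209199_s_at and 209200_at have the same order as those of the ACTB ratio. Lateral and medial rectus overlap in each of these, so their order is not resolved. The probe set 207968_s_at is high only in whole muscle.

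In the comparison of orbital with global layer, which asks how the layers of one muscle differ, none of the 6 probe sets of 5 genes that passed the filter on U133A was called by limma. Of all 9532 probe sets tested, 0.409% were called. At an unadjusted p under 0.05 there were 3 of 6 (MYF5, MYF6 and MEF2C 209200_at), against 9.49% of all probe sets. Arrays did not overlap for 4 of the 6, against 41.9% of all. The median difference was 0.39 over the 6 and −0.04 over all probe sets. Without orbital replicate 1 the number of calls was also 0. Summed markers of several other cell types parted the U133A layers, where arrays of 41.9% of all probe sets tested did not overlap. Sums of muscle fibre, satellite cell, B cell, leukocyte and red blood cell markers overlapped between the layers. Endothelial markers (7 of 7) were 14131 to 17499 on the orbital and 18381 to 24227 on the global arrays, and adipocyte markers (4 of 4) were 1120 to 2155 and 3352 to 6605. Schwann cell and nerve markers (5 of 7) were 9350.0 to 10776 and 11049.7 to 11429. Fibroblast markers (6 of 6), at 227973 to 260137 and 193232 to 195412, and smooth muscle and pericyte markers (6 of 6), at 37225 to 38764 and 34780.4 to 36047, were higher on the orbital arrays. On U133A only 1 of the 4 adipocyte markers passed the filter, and 1 of 3 Schwann cell and nerve markers tested had a positive difference. On U133B the adipocyte marker (1 of 4) was 568 to 1688 and 2681 to 4705. The Schwann cell and nerve marker there (1 of 7) was 3781 to 4292 and 2454 to 3225, opposite to the sum on U133A. Endothelial (2 of 7), fibroblast (4 of 6) and smooth muscle and pericyte markers (4 of 6) overlapped between the layers on U133B. The part of these markers in the values was not tested. On U133B, 0.021% of probe sets were called and the PAX3 probe set was not among them.

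For medial against lateral rectus, which pull the eye toward and away from the nose, none of the 8 tested U133A probe sets of 6 genes was called. The share over all 11907 probe sets was 0.0%, and on U133B, where PAX3 was not called, it was 0.0% too. At an unadjusted p under 0.05 there was 1 of 8 (MYOD1), against 2.8% of all. Arrays were apart for 3 of 8, against 28.6% of all, and in each the medial arrays were lower. These were MYOD1, MYF6 (−0.35 ± 0.21) and MEF2C 207968_s_at (−0.45 ± 0.25), each with adjusted p = 0.999 by limma. All 10 muscle fibre markers tested on U133A were lower in medial rectus too, none past the threshold, with a median of −0.21. Their sums were 785458 to 786333 in medial and 839622 to 963099 in lateral rectus. This was not particular to fibre markers. All 5 endothelial, 4 smooth muscle and pericyte and 3 Schwann cell and nerve markers tested were lower as well (medians −0.18, −0.28 and −0.31), none past the threshold. Among the other lists, 2 of 6 fibroblast, 1 of 4 satellite cell and 1 of 3 leukocyte markers were higher in medial rectus. The 2 B cell markers and the 1 adipocyte marker tested were higher too. Red blood cell markers (2 of 4) were 9022 to 12995 in medial and 26117 to 32951 in lateral rectus, but only 1 of the 2 passed the filter. On U133B (1 of 4) they overlapped, at 2105 to 3410 and 1242 to 3226. The part of these lists in the values was not tested. MYOG (0.02 ± 0.33), EYA1 (0.18 ± 0.40) and MYF5 (0.37 ± 0.44) overlapped. The median over the 8 was −0.07, and over all probe sets it was 0.00471.

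For layers against whole muscle, 5 of the 8 probe sets tested on U133A were called by limma, 3 higher (EYA1 and MEF2C 209199_s_at and 209200_at) and 2 lower (MYOG and MEF2C 207968_s_at). Calls were common in this comparison, at 48.7% of all 10533 probe sets, with 18.6% higher and 30.1% lower. With quantile normalization the calls of all probe sets were 50.4% higher ones, against 38.3% here. The same 5 had arrays that did not overlap, against 43.9% of all. MYOG and MEF2C 207968_s_at reached the filter through whole muscle alone, so the count of 8 leans toward probe sets high there. Without a filter, 5 of 12 were called, and without orbital replicate 1, 5 of 8. Without that array the differences were −2.09 for MYOG, 1.37 for EYA1 and −3.18, 0.87 and 1.15 for MEF2C 207968_s_at, 209199_s_at and 209200_at. On U133B, 42.8% of all probe sets were called and the PAX3 probe set was not.

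The median of all differences between layers and whole muscle was −0.18 on U133A. Quantile normalization moved it to 0.00215. Relative to −0.18, the differences were −1.85 for MYOG, 1.49 for EYA1, and −2.86, 1.06 and 1.38 for the MEF2C probe sets in the order above. MYOD1 (−0.56 ± 0.42, adjusted p = 0.286), MYF5 (0.07 ± 0.29, adjusted p = 0.861) and MYF6 (−0.11 ± 0.34, adjusted p = 0.804 by limma) did not pass. MYF6 depended on the layer, at 0.48 for the orbital layer alone and −0.70 for the global layer alone against whole muscle, and neither passed. Markers of other cells moved with this comparison. The summed B cell markers, 3 of 4 measured on U133A, were 1601 to 1992 in the layers and 2996 to 3996 in whole muscle, and on U133B (1 of 4) they overlapped, at 172 to 897 and 507 to 2319. The smooth muscle and pericyte markers, 6 of 6 on U133A, were 34780.4 to 38764 and 16137 to 27404, but on U133B, with 4 of 6, they were 5286 to 6477 and 6953 to 11169. Schwann cell and nerve markers, 5 of 7 on U133A, were 9350.0 to 11429 and 11636 to 17153, and on U133B (1 of 7) they overlapped, at 2454 to 4292 and 3978 to 6289. The muscle fibre marker on U133B (1 of 10) was 9662 to 19413 and 4917 to 7498, opposite to the sum on U133A. Fibroblast markers overlapped on U133A, and on U133B, with 4 of 6, were 12825 to 18302 and 6401 to 7727. No marker of these lists was below the floor on all arrays of U133A, and their part in the results was not tested.

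**Figure D4:**
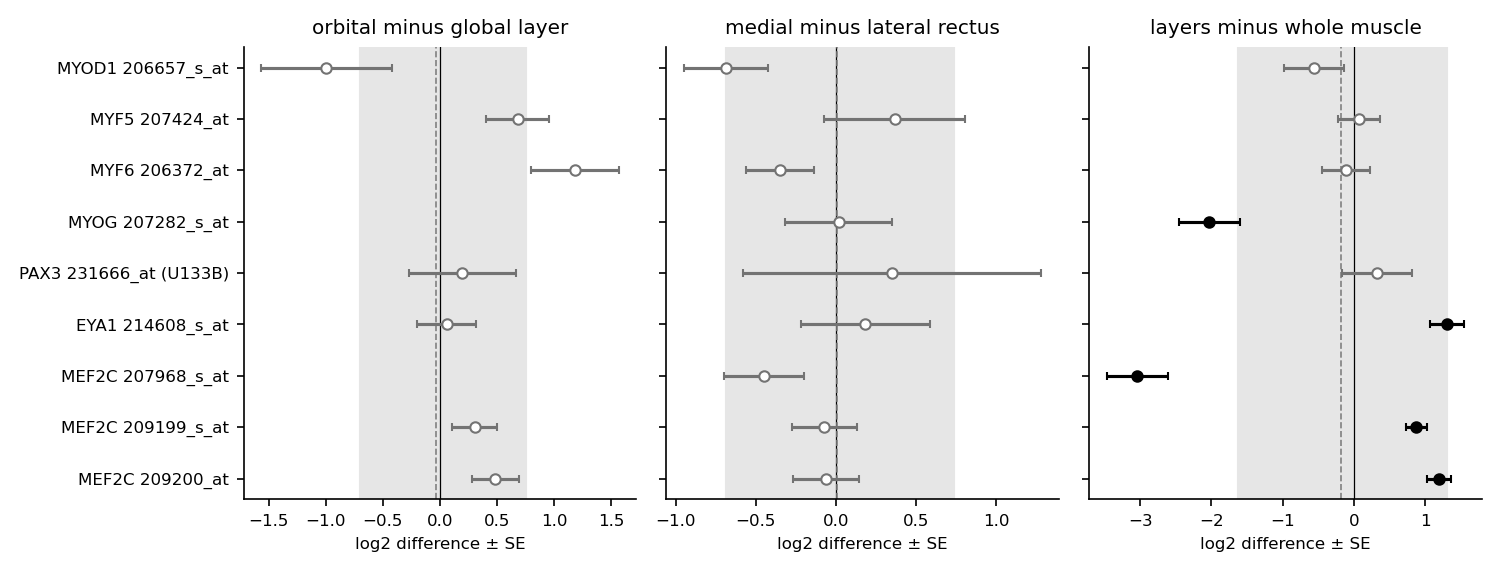
Log2 difference ± SE of each probe set tested in the 3 comparisons, filled where it passed limma at adjusted p under 0.05, with the 5th to 95th percentile of all U133A differences shaded and their median dashed. No point is filled for the layers or the recti, and 5 are filled for layers against whole muscle.

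The 8 genes work with partners and targets, and 7 lists of these with 60 genes were examined, of which 52 were measured on U133A and 23 on U133B, each gene represented by its brightest probe set. For orbital against global layer, 1 of 30 genes tested on U133A rose and 0 of 16 on U133B changed by limma. The gene was MYH3, the embryonic myosin heavy chain and a target of the myogenic factors, with 85288 and 78359.9 units on orbital and 3086 and 11010.0 on global arrays. Its difference was 3.81 ± 0.51 (adjusted p = 0.031 by limma), and its call ended without a filter (adjusted p = 0.544) and without a trend in the variances (adjusted p = 0.0664). Its alternatives ranged from 1.54e-09 to 0.544 in adjusted p. Leaving out 1 array moved the difference to 2.89 (without global replicate 1), 4.73 (without global replicate 2), 3.75 (without orbital replicate 1) or 3.87 (without orbital replicate 2).

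Genes that did not pass between the layers included ID3 and ID1, inhibitors that bind E proteins and keep them from the myogenic factors. ID3 gave 3398 and 3225 units on orbital and 1204 and 1369.9 on global arrays (1.37 ± 0.25, adjusted p = 0.0977 by limma), and the arrays did not overlap. With the replicate number as a block, a pairing that the labels do not state, ID3 passed (adjusted p = 0.0361 by limma). It did not pass with all 4 groups in 1 fit (adjusted p = 0.263) or without a filter (adjusted p = 0.25, both by limma). ID1 differed by 0.75 ± 0.29. The E protein TCF4 differed by 0.92 ± 0.31 on its brightest probe set, with the same sign in 5 of its 7 probe sets tested. DES, the intermediate filament gene desmin, differed by 1.29 ± 0.36. PITX1, a homeobox factor, differed by 1.12 ± 0.41, and SRF, the MADS-box serum response factor, by 0.66 ± 0.27. Single arrays moved these values. Without global replicate 1, DES was at 0.75, TCF4 at 1.40, which passed, and PITX1 at 1.66. Without global replicate 2, DES was at 1.83, which passed, TCF4 at 0.43 and PITX1 at 0.58. Without orbital replicate 1, the array with conflicting labels, ID3 was at 1.33, ID1 at 0.45 and DES at 1.22. TCF4 was at 0.95, PITX1 at 0.96 and SRF at 0.77 without it.

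Between medial and lateral rectus, 0 of 33 genes tested on U133A and 0 of 19 on U133B were called by limma. The E protein TCF3 was at −1.19 ± 0.43, and 3 of its 4 probe sets tested had this sign. ID4, another inhibitor, was at 1.48 ± 0.68 on U133B. TBX1, a regulator of head muscle, was at −0.83 ± 0.38 on U133B. With 1 array left out, TCF3 ranged from −1.75 to −0.63, ID4 from 0.86 to 2.11 and TBX1 from −1.31 to −0.35.

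Between layers and whole muscle, 16 of 31 genes tested on U133A changed, 9 higher and 7 lower. Over all U133A probe sets, 48.7% were called, 18.6% higher and 30.1% lower. On U133B, 6 of 17 changed, 5 higher and 1 lower, against 42.8% over all probe sets, 20.5% higher and 22.3% lower. In the list of EYA, DACH and SIX4-type genes, whose products work with EYA1, 3 of 5 genes tested on U133B rose and none fell. SIX4, a homeodomain factor that EYA proteins co-activate, gave 21166 and 18719.8 units on the orbital arrays, 22344 and 28755 on the global arrays, 4232 and 1484 in lateral rectus and 4168 and 744 in medial rectus. All layer arrays were above all whole muscle arrays, by 3.42 ± 0.46 or 10.7-fold (adjusted p = 0.000174 by limma). DACH1, a co-factor of EYA proteins, rose by 1.03 ± 0.25, and EYA4, a paralog of EYA1, by 0.65 ± 0.18. With the global layer alone both calls ended (0.81 and 0.55). On U133A, 0 of 2 genes of this list were called by limma, and DACH1 was at 0.10 ± 0.25 there (adjusted p = 0.76 by limma). With quantile normalization DACH1 was at 0.54 (adjusted p = 0.191 by limma) and EYA4 reversed to −0.33.

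Of the co-regulators of MEF2 and SRF, 4 of 7 genes tested on U133A and 2 of 5 on U133B rose and none fell. Over all probe sets, 18.6% were called higher on U133A and 20.5% on U133B. MEF2D, a relative of MEF2C, rose by 1.80 ± 0.25 on U133B. MEF2A, another relative, rose by 0.66 ± 0.16 on its brightest U133A probe set, but of its 2 probe sets tested there only 1 had this sign, and on U133B it was at 0.05 ± 0.53. MEF2D gave 10088 to 13953 units on the layer arrays and 2214 to 4908 in whole muscle, without overlap. SRF rose by 0.87 ± 0.24 and its co-activator MRTFB by 0.78 ± 0.20, and with the global layer alone against whole muscle both calls ended (0.54 and 0.52). HDAC4, a histone deacetylase that represses MEF2 factors, rose by 1.03 ± 0.37 on U133A and 1.17 ± 0.20 on U133B. Quantile normalization ended the calls of MEF2A (0.12, adjusted p = 0.622) and of HDAC4 on U133B (0.21, adjusted p = 0.412 by limma). The U133A call of HDAC4 also ended when global replicate 1 (0.98), global replicate 2 (0.92), orbital replicate 2 (0.98), lateral rectus replicate 1 (1.00) or medial rectus replicate 1 (0.68) was left out.

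Inhibitors and repressors of helix-loop-helix factors rose in 3 of 5 genes tested on U133A, against 18.6% of all probe sets, and in 0 of 3 on U133B. These were ID2 (1.90 ± 0.69), ID3 (1.56 ± 0.38) and the Notch target HEY1 (1.26 ± 0.22), which rose on both of its probe sets. ID2 was below the floor on lateral rectus replicate 2 and medial rectus replicate 2 (121 and 100.4 units), so its difference depends on the floor, and it passed the filter through the layers alone. ID3 lost its call with the global layer alone against whole muscle (0.87). ID2 lost its call without global replicate 2 (2.03), orbital replicate 1 (1.84), lateral rectus replicate 2 (1.42) or medial rectus replicate 2 (1.42). Of the E proteins, TCF12 rose by 0.60 ± 0.15 among 3 tested on U133A, a call that ended with quantile normalization (0.20, adjusted p = 0.301 by limma).

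Textbook targets of the myogenic factors fell in 6 of 10 genes tested on U133A and rose in none, against 30.1% lower and 18.6% higher over all probe sets, with a median of −0.58 against −0.18 over all. CDH15 passed the filter through whole muscle alone, where it was high, so the count leans toward lower calls. CDH15, the M-cadherin of satellite cells and myoblasts, gave 327 to 698 units on the layer arrays and 894 to 2452 in whole muscle and fell by 1.54 ± 0.37 on the log2 scale (adjusted p = 0.00516 by limma). CHRNA1 and CHRNB1, subunits of the muscle acetylcholine receptor, fell by 0.65 ± 0.17 and 0.63 ± 0.21. CHRNA1 lost its call with the orbital layer alone against whole muscle (−0.48). The myosin light chain gene MYL1 fell by 0.76 ± 0.12, the muscle creatine kinase gene CKM by 0.54 ± 0.14 and cardiac actin ACTC1 by 0.30 ± 0.11. CKM lost its call with the global layer alone (−0.36). Quantile normalization ended the calls of CDH15 (−1.01, adjusted p = 0.0683), MYL1 (−0.20, adjusted p = 0.159) and ACTC1 (−0.0047, adjusted p = 0.979, by limma). ACTC1 also lost its call without each U133A array in turn except global replicate 1, at −0.33 to −0.24. CHRNB1 lost it without global replicate 1 (−0.47), global replicate 2 (−0.61), lateral rectus replicate 1 (−0.58), lateral rectus replicate 2 (−0.54) or medial rectus replicate 1 (−0.64). Over all alternatives CHRNB1 ranged from −0.89 to −0.37, with adjusted p up to 0.181 by limma.

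The regulators of trunk and limb precursors include MET, the receptor for hepatocyte growth factor and a target of PAX3. Of these, 1 of 4 tested on U133A rose and 1 fell, against 18.6% higher and 30.1% lower over all probe sets. MET gave 403 to 823 units on the layer arrays and 1832 to 2274 in whole muscle and fell by 1.82 ± 0.26 (adjusted p = 0.000258 by limma), on all 3 of its probe sets tested. MET too passed the filter through whole muscle alone on the probe set given. The homeobox gene MEOX2 rose by 0.94 ± 0.29, and its call ended without global replicate 1 (0.79, adjusted p = 0.055 by limma). Over all alternatives MEOX2 ranged from 0.65 to 1.40, with adjusted p up to 0.184 by limma. Of the extraocular and head muscle regulators, none was tested on U133A and 1 of 2 on U133B fell, against 22.3% lower over all probe sets. The gene that fell was the forkhead gene FOXC2, at −1.11 ± 0.25 (adjusted p = 0.00419 by limma).

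**Figure D5:**
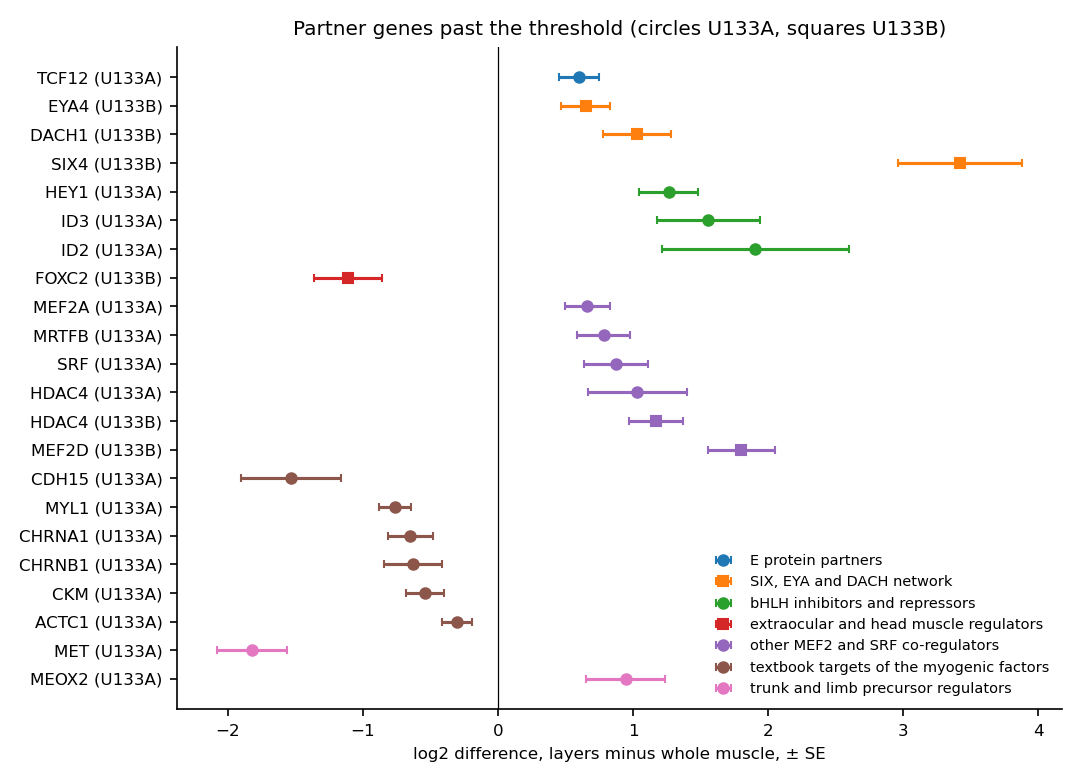
Log2 difference ± SE of layers minus whole muscle for the genes of the 7 lists that passed limma at adjusted p under 0.05, coloured by list, with circles for U133A and squares for U133B. Among the genes that passed, SIX4, DACH1, EYA4 and the MEF2 co-regulators lie to the right, except that EYA4 reversed with quantile normalization. The targets of the myogenic factors that passed lie to the left. Genes that did not pass are not shown, among them 3 of the 10 targets tested, with positive differences, and 1 co-regulator with a negative difference on U133B.

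For each gene with enough signal, the genes whose log2 intensity was most alike over the 8 arrays of its table were listed by Pearson correlation. This is a description in which the arrays share amplification and tissue. The genes named had the highest correlations among 9300 candidate probe sets on U133A or 7900 on U133B. How high such values reach among unrelated genes in a search of this size was not tested. EYA1 was most like MFF and NOLC1 (r = 0.99 and 0.98), MEF2C (209199_s_at) like SGMS1 and DTNA (both 0.99), and MYOG like KLHDC10 and AIDA (both 0.99). MYF6 was most like FAU and TARDBP (0.96 and 0.95), MYF5 like PGAP3 and ZNF394 (both 0.92) and MYOD1 like HTATIP2 and CORO1B (both 0.91). On U133B, PAX3 was most like MAP6 and IFT140 (0.99 and 0.96). For EYA1, MEF2C and MYOG the likeness follows the split between layer and whole muscle arrays, whereas MYOD1, MYF5 and MYF6 have no such split.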

How the data were processed

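Each deposited value is a linear intensity of a probe set on an array. The authors appear to have scaled each array, since the 2% trimmed mean was 1500.2 to 1500.7 on all. Their summary software is not given in the sources used here. Layer RNA was amplified and whole muscle RNA was not, per the labels. Arrays were grouped by title. Each was brought to a common 2% trimmed mean, raised to the floor (146.5 or 218.5 units) and put on the log2 scale, and 68 control probe sets per table were left out. limma 3.58.1 in R 4.3.3 (2 groups, intensity trend, two-sided) was fitted to each whole table apart, and tested on simulated data. Figures were drawn with Python 3.11.15 and matplotlib 3.10.9. Symbols came from the platform annotation: of 22283 U133A probe sets, 19071 carried 1 symbol, 1043 several and 2169 none, and of 22645 on U133B, 15432, 554 and 6659.

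The genes and lists were chosen with earlier results of these data known. From each list the genes past the threshold and up to 3 with the largest difference were named. Alternatives were quantile normalization, other floors (5th or 40th percentile), no filter or one at the 75th percentile, array weights, no variance trend, 1 fit over all 4 groups, the replicate number as a block for the layers, and each array left out.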

Additional observations from a re-analysis of the deposited data

Results flagged for a closer look

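A gap test was applied to 26 sets of 4 arrays (the layers or whole muscle on one probe set), where chance alone marks about 1 in 20, and 3 arrays stood apart. For PAX7, lateral rectus replicate 2 gave 164 units, while the other 3 whole muscle arrays, at 137 to 144, were at the floor. For PAX3 207679_at, global layer replicate 2 gave 286 units against 34.2 to 77.0 on the other layer arrays. On the same probe set, medial rectus replicate 2 gave 949.8 units against 23.2 to 92.9 on the other whole muscle arrays. In each case the other 3 arrays were at the floor, so that any value above it stands apart.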

How the results depend on the processing

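The 5 calls of layers against whole muscle were 5 in every array left out and with each layer alone (added after seeing the data), 4 with quantile normalization and 3 of 5 tested with a filter at the 75th percentile, which removes MYOG and MEF2C 207968_s_at by construction. Between the layers on U133A, leaving out 1 array gave 0 to 1 calls: MYF6 without global layer replicate 2 and MYOD1 without orbital layer replicate 2. Medial against lateral rectus gave 0 in all alternatives. Calls over all U133A probe sets ranged from 0 to 144 between the layers (39 as reported), from 0 to 9 between the recti (0) and from 2513 to 6572 for layers against whole muscle (5132). On U133B they were 0 to 28 (2), 0 and 2799 to 5384 (4510).

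Signs that turned did so for differences that had not passed, except EYA4 (−0.33 with quantile normalization). With 1 array left out, orbital minus global ranged from −0.16 to 0.27 for EYA1 and from −0.058 to 0.45 for PAX3 (U133B). Medial minus lateral ranged from −0.080 to 0.81 for MYF5, −0.23 to 0.26 for MYOG, −0.31 to 0.68 for EYA1, −0.22 to 0.074 for MEF2C 209199_s_at, −0.23 to 0.11 for 209200_at and −0.59 to 0.99 for PAX3. Layers minus whole muscle ranged from −0.14 to 0.24 for MYF5, −0.37 to 0.29 for MYF6 and −0.042 to 0.60 for PAX3. Quantile normalization turned medial minus lateral of MYOG (−0.0070), MEF2C 209199_s_at (0.059) and 209200_at (0.039). Array weights turned layers minus whole muscle of MYF6 (0.093), as did the orbital layer alone (0.48), and the global layer alone turned MYF5 (−0.27). The cause was not tested.

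The labels do not say whether layer arrays with the same replicate number belong together. Over the probe sets tested, deviations of same-numbered arrays correlated at 0.26 on U133A and 0.13 on U133B. With 2 arrays per layer there is a single deviation per layer, so this cannot decide whether the arrays are paired. With the replicate block the count of calls among the 8 genes stayed 0, and calls over all probe sets went from 39 to 92 on U133A and from 2 to 26 on U133B. No paired analysis was possible for the recti because the labels number only some arrays. Signal near the floor limits PAX7 and the U133A probe sets of PAX3.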
